A study of Mus musculus with 6 samples.

Results

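The genes described here are 10 of the 12393 genes measured on mouse liver arrays, chosen for their place in the circuit that ties MiT/TFE transcription factors to nutrient sensing by the kinase complex mTORC1. They are the factor genes Tfeb, Mitf and Tfec, the Rag GTPase genes Rraga, Rragc and Rragd, the folliculin gene Flcn, the kinase gene Mtor with its activator Rheb, and the target gene Gpnmb. Each was found by a single gene symbol, current or former, in the array's annotation; all 10 were measured, and a gene with several probe sets is read from the lead probe set, that with the highest mean over the arrays. The arrays hold total liver RNA of 6 mice. Every mouse is labelled a Ppara knockout (Ppara KO) on a C57 background and was 1 month old, so the loss of this nuclear receptor gene is shared by both groups. In the TFEB-injected group the livers of 3 mice received an adenoviral vector, and the series title says that TFEB was overexpressed in liver. The other 3 mice were not injected. No group received a vector without TFEB, so effects of the injection or the vector cannot be told apart from those of TFEB. The labels name neither the promoter nor the species of the TFEB sequence, nor the part of Ppara that is missing.

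TFEB, MITF, TFEC and TFE3 form a family of basic helix-loop-helix leucine zipper factors that bind short E-box sequences and are known for switching on lysosomal and autophagy genes. When amino acids are plentiful, heterodimers of RagA or RagB with RagC or RagD hold mTORC1 on the lysosome, where the GTPase Rheb activates it. Folliculin stimulates GTP hydrolysis by RagC and RagD, and active mTORC1 then phosphorylates TFEB, which keeps the factor in the cytoplasm. Several of these regulators are themselves known as MiT/TFE targets, which closes a feedback loop.

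The values are log2 expression levels normalized by the authors, so a difference of 1 is a doubling. Levels are given per array or as mean ± SD (n = 3), and changes are TFEB-injected minus not-injected, as estimate ± SE from limma. A gene is said to have risen or fallen where the p-value, adjusted by Benjamini-Hochberg over all 12393 genes, was under 0.05. Arrays correlated at 0.995 or more within each group and at 0.989 to 0.993 across groups, over all genes tested. The injected arrays varied more, with a median SD ratio of 1.24 over all genes. Hepatocyte markers had mean levels of 14.23 to 14.24 on the not-injected arrays and 14.17 to 14.24 on the injected arrays, with 0 of 8 measured passing. Ppara itself read 8.95 ± 0.07 without and 9.08 ± 0.04 with injection; this does not check the knockout, since the missing part is unknown. With 3 arrays a group the precision is limited. The limma p-values set each change against the spread between these mice, moderated by the spread shared across genes.

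Of the 10 genes, Rragc and Gpnmb rose and 0 fell. Rragc, for a Rag GTPase, rose 1.66-fold, and Gpnmb, for a transmembrane glycoprotein of lysosome-rich cells, rose 3.94-fold. The factor genes Tfeb, Mitf and Tfec, the kinase gene Mtor, Rheb, Rraga, Rragd and Flcn did not pass. Among all genes 17.9% passed, 9.99% upward and 7.92% downward, so 2 of 10 lies near the background and is no result about the set. With the arrays centred on their medians, 1060 genes rose and 1352 fell, against 1238 and 981 in the deposited scaling. The median log2 change was 0.19 over the 10 genes and -0.01 over all genes. The groups did not overlap for 4 of the 10 genes (Rragc, Rragd, Flcn and Gpnmb), each higher in the injected livers. Among all genes 37.1% did not overlap, 18.2% with the injected arrays higher and 18.9% with them lower.

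**Figure D1:**
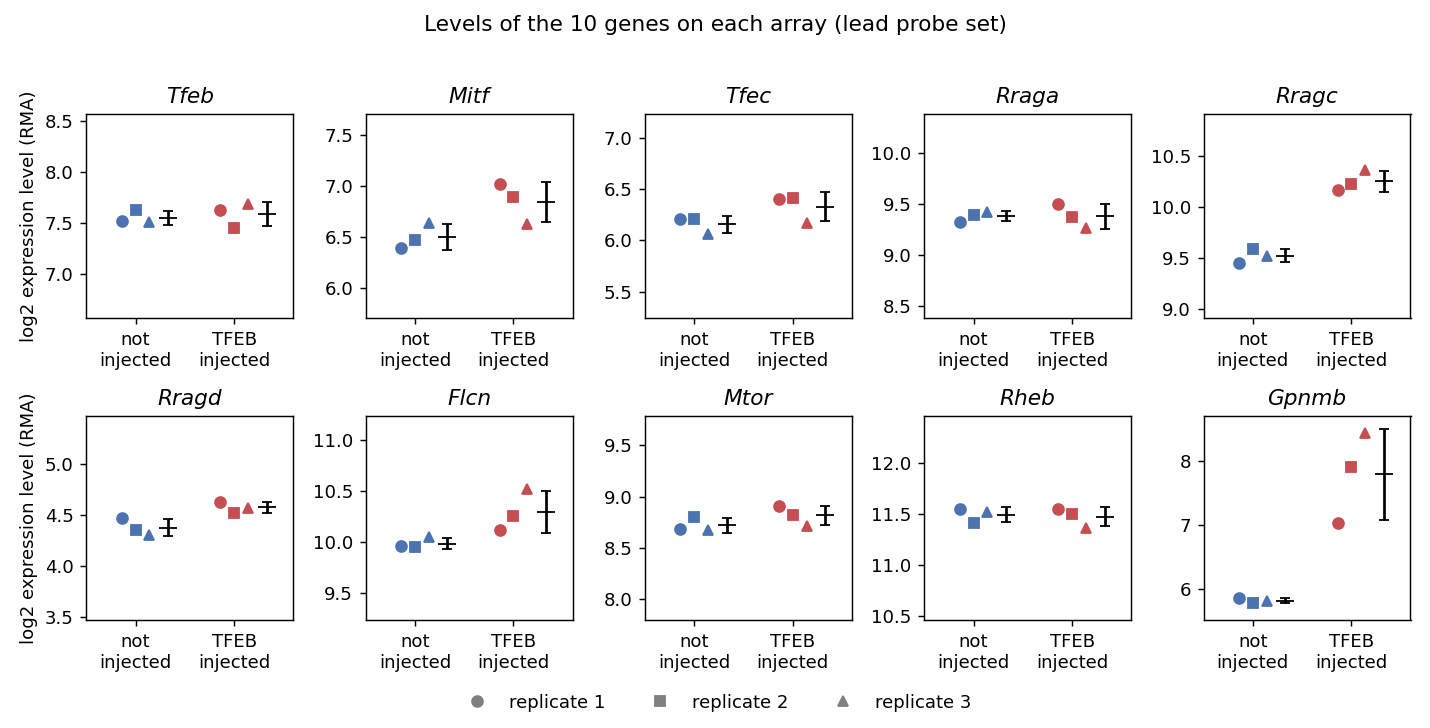
Log2 expression level (vertical axis) of each of the 10 genes on the 3 not-injected arrays (blue) and the 3 TFEB-injected arrays (red), with marker shapes for the replicates and mean ± SD in black; the vertical range is the same in all panels but that of Gpnmb. The groups are apart for Rragc and Gpnmb, closer for Flcn and Rragd, and overlap in the other 6 panels.

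The factor genes come first. Tfeb, the gene overexpressed per the title, had not-injected levels of 7.52, 7.63 and 7.51 and injected levels of 7.63, 7.46 and 7.69. The groups overlapped, and the injected replicate 2 was the lowest of all the arrays. The log2 change was 0.04 ± 0.07 (95% interval -0.13 to 0.20; adjusted p = 0.777). This single mouse probe set need not detect a vector transcript, so it neither checks the label nor measures the total TFEB message.

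Mitf encodes the family member known for melanocytes, osteoclasts and mast cells. It measured 6.40, 6.47 and 6.64 in not-injected livers and 7.02, 6.89 and 6.63 in injected livers. Injected replicates 1 and 2 lay above every not-injected array, while injected replicate 3 lay just under not-injected replicate 3. The log2 change was 0.35 ± 0.11 (95% interval 0.10 to 0.60; adjusted p = 0.0651), which missed the threshold. Without TFEB-injected replicate 3 it was 0.45 and passed (adjusted p = 0.0117); over the arrays left out in turn the adjusted p ran from 0.0117 to 0.192. The other Mitf probe set, at 3.93 ± 0.01 and 4.14 ± 0.17, changed by 0.21 ± 0.08 and did not pass either (adjusted p = 0.144 over all 20380 probe sets, of which 15.4% passed), and there injected replicate 3 was the highest array, at 4.33. The mean of both probe sets changed by 0.28 ± 0.05 and passed (adjusted p = 0.00694). The sets, of which the second was dim, ranked the injected arrays in opposite order, so those arrays spread less in the mean. With an intensity trend and a robust prior in limma the lead probe set passed too (adjusted p = 0.0458). The Mitf call thus depended on these settings.

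Tfec encodes a family member best known from macrophages. Its levels were 6.21, 6.21 and 6.06 without injection and 6.41, 6.41 and 6.17 with it. As for the lead Mitf probe set, injected replicates 1 and 2 stood above all not-injected arrays and injected replicate 3 lay within their range. The change of 0.17 ± 0.08 (95% interval -0.02 to 0.36) did not pass (adjusted p = 0.196). Without TFEB-injected replicate 3 it was 0.25 and passed (adjusted p = 0.0303). The remaining family gene, Tfe3, was not analysed here. Set against each other within arrays, Mitf changed by 0.31 more than Tfeb and by 0.18 more than Tfec. Neither difference passed an exact two-sided permutation test over the arrays (p = 0.20 and 0.30; 0.267 and 0.30 adjusted over 4 such pairs, chosen after the values were seen), where 3 against 3 arrays cannot give less than 0.10.

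**Figure D2:**
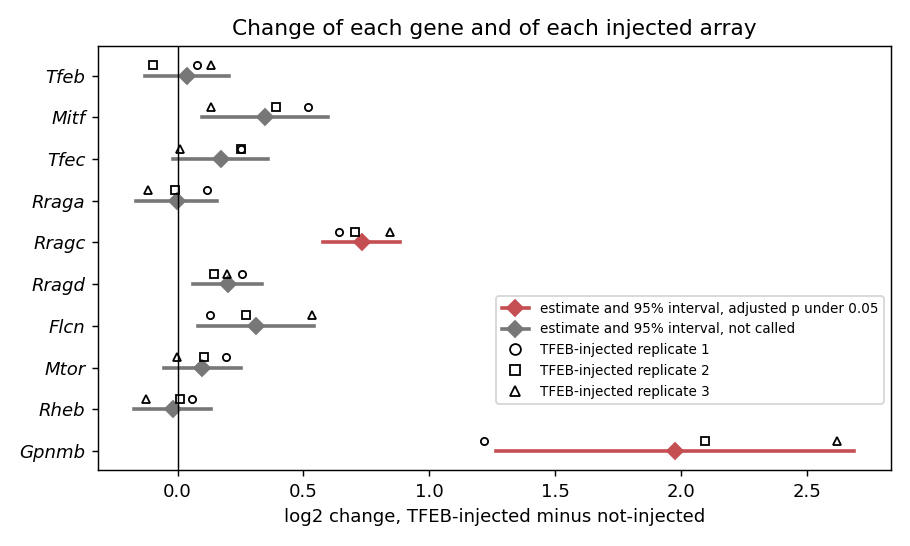
Log2 change (horizontal axis, TFEB-injected minus not-injected) of each gene with its 95% interval, red where the adjusted p is under 0.05 and grey otherwise; open symbols give each injected array minus the mean of the 3 not-injected arrays. Rragc (0.73) and Gpnmb (1.98) stand apart from 0, and the 3 injected arrays spread from 1.22 to 2.62 for Gpnmb.

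The Rag GTPases and folliculin follow. Rragc, whose product pairs with RagA or RagB, measured 9.45, 9.58 and 9.52 in not-injected livers and 10.16, 10.23 and 10.36 in injected livers. All injected arrays lay above all not-injected ones, and the gap between groups was wider than the range within either. The log2 change was 0.73 ± 0.07 (95% interval 0.58 to 0.88; adjusted p = 4.85e-04), or 1.66-fold. Rragc passed with any 1 of the 6 arrays left out, at changes of 0.67 to 0.77 and an adjusted p of at most 0.00418.

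Rragd encodes the close relative of RagC. Its probe set was dim, at 4.47, 4.35 and 4.31 without injection and 4.63, 4.52 and 4.58 with it. The groups did not overlap, and the change of 0.20 ± 0.06 (95% interval 0.06 to 0.34) just missed the threshold (adjusted p = 0.0559). After cyclic loess scaling of the arrays it was 0.23 and passed (adjusted p = 0.0288). Rraga, for the partner GTPase RagA, had levels of 9.33, 9.39 and 9.42 and of 9.50, 9.37 and 9.26. Here the injected arrays surrounded the not-injected ones, with a change of -0.0033 ± 0.07 (95% interval -0.16 to 0.16; adjusted p = 0.980). Within arrays, Rragc changed by 0.73 more than Rraga and by 0.53 more than Rragd. Each difference had p = 0.10 by the exact two-sided permutation test, the smallest that 3 against 3 arrays can give, and 0.20 adjusted over the 4 pairs.

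Flcn encodes folliculin, the activating protein for RagC and RagD. Its lead probe set measured 9.96, 9.95 and 10.04 in not-injected livers and 10.11, 10.25 and 10.51 in injected livers. The groups did not overlap, but injected replicate 1 lay only slightly above not-injected replicate 3. The change was 0.31 ± 0.10 (95% interval 0.08 to 0.54; adjusted p = 0.0707) and did not pass. Without TFEB-injected replicate 1 it was 0.40 and passed (adjusted p = 0.0215). When the dimmer part of all genes, those under the median mean level, was dropped before the fit, the change of 0.31 passed too (adjusted p = 0.0467). A further Flcn probe set gave the same size, 0.31 ± 0.09 (adjusted p = 0.0639 over all probe sets), and the dimmest of the 3 gave 0.14 ± 0.09 (adjusted p = 0.333); on all 3, injected replicate 3 was the highest array.

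Promoter sequences show which of these genes carry, near the start of the transcript, the letters that MiT/TFE factors are known to bind. RefSeq windows (build GRCm38.p6) of 250 bases before to 50 bases after the start were searched on both strands for the E-box core CACGTG, for TCACGTGA, the core of the CLEAR element found at many lysosomal genes, and for the M-box TCATGTG. TCACGTGA contains CACGTG. All 10 genes matched, with 14 windows in all, since Tfeb and Mitf have 3 windows each. Rragc and Rheb were the 2 genes with CACGTG, and 0 of the 10 held TCACGTGA or TCATGTG in these windows. The windows of Rragc, which rose and holds the core, of Rheb, which holds it and did not pass, and of Gpnmb, which rose and does not hold it, are shown 5′ to 3′ with the core in capitals. They lie at chr4:123917183-123917482 on the plus strand, chr5:24842312-24842611 on the minus strand and chr6:49036268-49036567 on the plus strand.
Rragc: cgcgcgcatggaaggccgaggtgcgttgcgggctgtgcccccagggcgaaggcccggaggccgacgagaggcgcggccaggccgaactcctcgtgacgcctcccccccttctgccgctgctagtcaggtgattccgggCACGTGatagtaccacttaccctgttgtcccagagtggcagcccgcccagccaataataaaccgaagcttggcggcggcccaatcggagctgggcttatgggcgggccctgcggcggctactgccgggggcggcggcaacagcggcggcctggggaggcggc
Rheb: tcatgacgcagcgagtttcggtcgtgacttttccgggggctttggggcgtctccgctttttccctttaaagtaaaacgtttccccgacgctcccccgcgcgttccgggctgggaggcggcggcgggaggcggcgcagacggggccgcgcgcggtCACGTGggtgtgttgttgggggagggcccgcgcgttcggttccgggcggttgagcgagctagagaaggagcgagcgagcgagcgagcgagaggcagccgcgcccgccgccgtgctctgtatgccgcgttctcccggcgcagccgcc
Gpnmb: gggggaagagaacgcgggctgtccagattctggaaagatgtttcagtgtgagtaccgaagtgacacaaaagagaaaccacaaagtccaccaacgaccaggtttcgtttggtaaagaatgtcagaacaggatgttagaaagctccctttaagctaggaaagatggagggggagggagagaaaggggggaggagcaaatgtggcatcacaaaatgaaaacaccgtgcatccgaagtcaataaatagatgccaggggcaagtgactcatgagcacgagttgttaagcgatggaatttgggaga

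In the Rragc window the core begins 112 bases before the start, and in the Rheb window 96 bases before it. Of all 32851 windows in the table, 7.15% held CACGTG, 0.974% TCACGTGA and 3.77% TCATGTG. Among measured genes with an entry, CACGTG was in at least 1 window of 165 of 1032 genes that rose (16%), of 84 of 785 that fell (10.7%) and of 820 of 8070 that did not pass (10.2%). These shares are a description, with no test. A match is not a measured binding site, and no match says only that the letters are not in this window.

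The kinase and its activator did not pass. Mtor, the catalytic subunit of mTORC1 and mTORC2, measured 8.68, 8.80 and 8.67 without injection and 8.91, 8.82 and 8.72 with it. Injected replicates 1 and 2 were slightly above the not-injected range and replicate 3 was within it, with a change of 0.10 ± 0.07 (95% interval -0.05 to 0.25; adjusted p = 0.358). A second Mtor probe set gave -0.01 ± 0.05, so the sign of the Mtor value depended on the probe set. Rheb measured 11.55, 11.41 and 11.52 and, in injected livers, 11.55, 11.50 and 11.37. The groups overlapped, and the change was -0.02 ± 0.07 (95% interval -0.17 to 0.13; adjusted p = 0.880). Beside the CACGTG in its promoter window, the Rheb level differed between groups by less than the spread between arrays.

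Gpnmb had the largest change of the 10 genes. The not-injected arrays lay close together at 5.87, 5.78 and 5.82, whereas the injected arrays were spread over 7.04, 7.92 and 8.44. Every injected array was far above the not-injected ones, and injected replicate 1 was clearly below the other two. The log2 change was 1.98 ± 0.30 (95% interval 1.26 to 2.69; adjusted p = 0.00462), or 3.94-fold. It ran from 1.66 to 2.36 with any 1 array left out and passed each time, at an adjusted p of at most 0.0254. A test that took the spread from each gene alone gave an adjusted p of 0.0622, so this call rests on the spread shared across genes.

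Gpnmb is known from macrophages, osteoclasts and melanocytes, so markers of those cells are given beside it. Of 17 measured macrophage and Kupffer cell markers, 10 rose and 0 fell, with a median of 0.42. Mean list levels were 8.11 to 8.15 on the not-injected and 8.40 to 8.63 on the injected arrays. With each array left out 8 to 13 of these markers rose. The test that took the spread from each gene alone gave 4 rises, and array weights gave 14. The scavenger protein gene Cd5l rose by 0.63 ± 0.05 (adjusted p = 2.37e-04). Of 7 markers linked to lipid-laden macrophages, 4 rose and 0 fell (median 0.28; mean list levels of 7.95 to 8.01 and of 8.36 to 8.46), among them Fabp5, for a fatty acid binding protein, by 0.90 ± 0.05. Fabp5 is not restricted to macrophages. Named after their values were seen, Trem2 and Itgax, which mark such macrophages more strictly, changed by 0.01 ± 0.08 and 0.01 ± 0.07 and did not pass. In RNA of whole liver, more cells of a type and more RNA per cell cannot be told apart.

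Melanocyte markers gave 0 rises and 1 fall among 7 measured (median -0.05), with mean list levels of 6.29 to 6.41 and of 6.23 to 6.34. The fall was that of Dct, for a melanin synthesis enzyme (-0.36 ± 0.04, adjusted p = 0.00149). Dct read 10.76 without injection and the other markers 4.74 to 6.71, and the cells behind the Dct signal were not tested. Of 5 osteoclast markers, the phosphatase gene Acp5, which macrophages also express, rose by 0.59 ± 0.05 (adjusted p = 2.81e-04) and the fusion gene Ocstamp fell (-0.23 ± 0.07; adjusted p = 0.0470). The Ocstamp call was lost with any 1 of the 6 arrays left out (adjusted p up to 0.135). The osteoclast median was -0.10, with mean list levels of 6.13 to 6.16 and of 6.16 to 6.20. The part of these cell types in the Gpnmb value was not tested.

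The injected livers differed among themselves, and not all the genes differed the same way. Relative to the not-injected mean, Gpnmb was higher by 1.22, 2.09 and 2.62 in TFEB-injected replicates 1, 2 and 3, Rragc by 0.64, 0.71 and 0.84 and Flcn by 0.13, 0.27 and 0.53. For these genes replicate 3 was the highest and replicate 1 the lowest. In contrast, the lead Mitf probe set was higher by 0.52, 0.39 and 0.13, and Tfec by 0.25, 0.25 and 0.01. Here replicate 3 was the lowest. The other Mitf probe set went the other way, at 0.06, 0.16 and 0.40, with replicate 3 the highest. The median shift of the macrophage and Kupffer cell markers was 0.56, 0.48 and 0.23, also lowest in replicate 3. The markers linked to lipid-laden macrophages shifted by a median of 0.28, 0.30 and 0.27, nearly level over the replicates, and 4 of those 7 genes were highest in replicate 3.

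**Figure D3:**
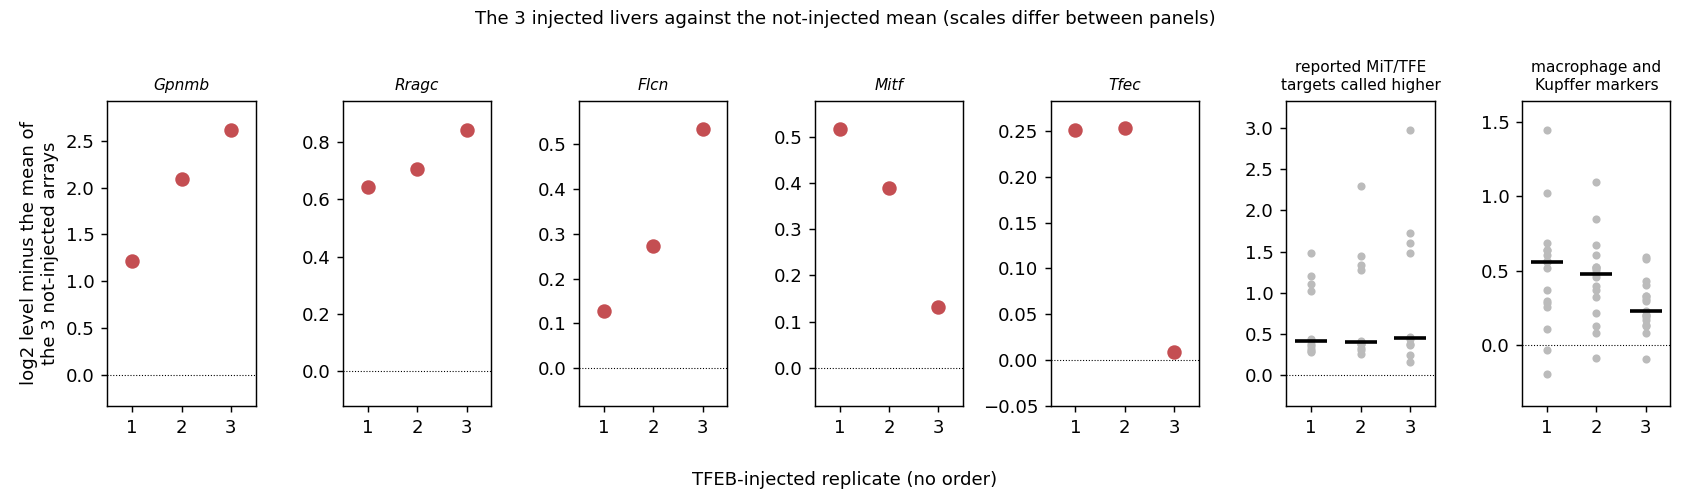
Log2 level on each TFEB-injected array minus the mean of the 3 not-injected arrays (vertical axis, scaled per panel) for 5 genes, for the 10 reported MiT/TFE targets that rose and for the 17 measured macrophage and Kupffer cell markers (grey points are genes, black bars medians). Replicate 3 is the highest for Gpnmb, Rragc and Flcn and the lowest for Mitf (lead probe set), Tfec and the macrophage median.

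Over all genes, replicate 3 was the highest injected array in 44.3% and the lowest in 35.7%. Among the 1238 genes that rose it was the highest in 59% and the lowest in 23.8%. Of the 10 reported MiT/TFE targets that rose, 7 were highest in replicate 3 and 3 were lowest there, close to those shares. Of the 17 macrophage and Kupffer cell markers, 4 were highest and 12 lowest in replicate 3. This was not particular to them, since 6 of 8 hepatocyte and 7 of 10 sinusoidal endothelial markers were also lowest there. At the other end, 0 of 7 melanocyte and 0 of 4 neutrophil markers were lowest in replicate 3.

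The other genes of the pathway were read from 7 lists of 86 genes, of which 68 were measured. Of these, 22 rose and 3 fell, 36.8% in all, with a median of 0.08. Leaving out the list of reported targets, 12 of 52 rose and 3 fell, or 28.8%, with a median of 0.07. The share over all genes was 17.9%. All 7 lists were chosen with earlier results of these data known, so neither count is independent evidence. The targets list also holds genes already seen to rise.

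**Figure D4:**
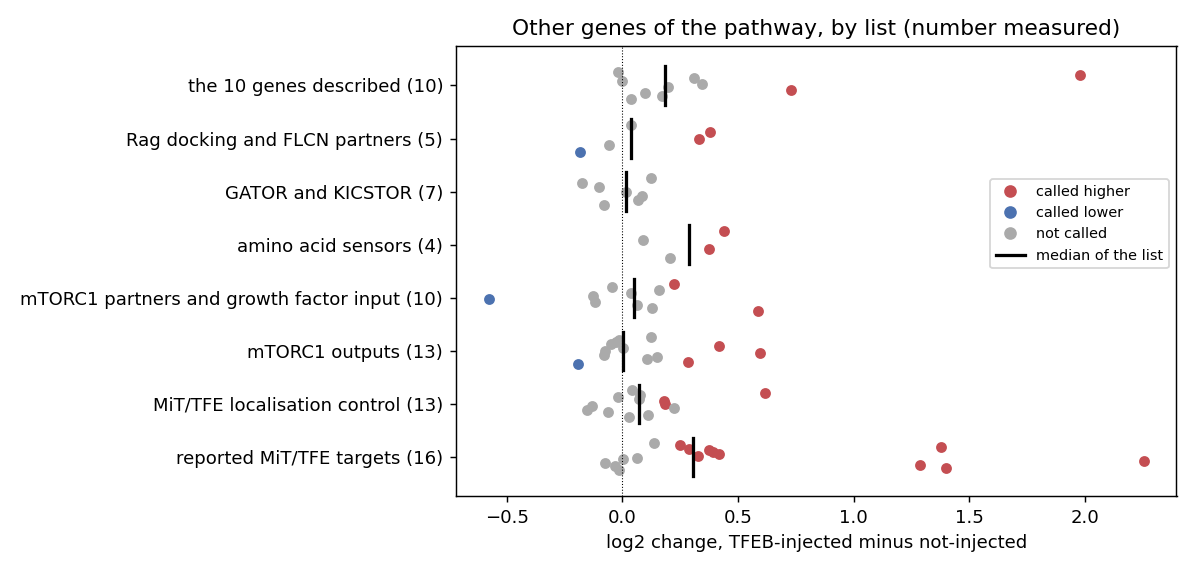
Log2 change (horizontal axis, TFEB-injected minus not-injected) of the 10 genes and of the 68 measured genes in 7 pathway lists, 1 point per gene, coloured by call, with list medians as black bars (vertical jitter has no meaning). The medians run from 0.00 for mTORC1 outputs to 0.31 for reported MiT/TFE targets, and the GATOR and KICSTOR list has 0 calls.

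On the lysosomal surface the Rags are anchored by the Ragulator complex, whose subunits are the Lamtor proteins. Of 5 measured genes for Rag docking and folliculin partners, 2 rose and 1 fell (median 0.04). Lamtor1, for the membrane anchor, went from 11.16, 11.22 and 11.25 to 11.46, 11.58 and 11.72, with no overlap (0.38 ± 0.07; adjusted p = 0.0106). The other Lamtor1 probe sets gave 0.45 and 0.23, the latter not past the threshold. Lamtor3 rose by 0.33 ± 0.06 (adjusted p = 0.00962). Lamtor2 fell by 0.18 ± 0.05 (adjusted p = 0.0410), a call lost with any 1 array left out (adjusted p up to 0.121). A second Lamtor2 probe set gave -0.10 and did not pass. Lamtor4 (0.04 ± 0.05) and Lamtor5 (-0.06 ± 0.05), named after their values were seen, did not pass. The remaining list members, among them Fnip1 and Fnip2 for the folliculin-interacting proteins, were not analysed here.

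GATOR1 switches RagA off when amino acids are scarce, GATOR2 restrains GATOR1, and KICSTOR anchors GATOR1. Of 7 measured genes of these complexes, 0 passed in limma (median 0.02, range -0.17 to 0.13). At an unadjusted p under 0.05 there was 1 gene, Mios, for a GATOR2 subunit, which had the smallest p (0.13 ± 0.05; adjusted p = 0.139). Its second probe set gave -0.16. Of 4 measured amino acid sensor genes, 2 rose, both for sestrins, proteins that inhibit GATOR2 (median 0.29). Sesn1 went from 9.35, 9.29 and 9.29 to 9.68, 9.76 and 9.79, far outside the not-injected range (0.44 ± 0.05; adjusted p = 0.00136), and its other probe sets gave 0.53 and 0.66. Sesn3 rose by 0.37 ± 0.05 (adjusted p = 0.00277). Both calls held with any 1 array left out (adjusted p up to 0.0112 and 0.0189).

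Among 10 measured partners of mTORC1 and genes of its growth factor input, 2 rose and 1 fell (median 0.05). Tsc1, for a subunit of the complex that switches Rheb off, went from 8.05, 8.13 and 7.99 to 8.44, 8.59 and 8.90, with no overlap (0.59 ± 0.11; adjusted p = 0.0114). A dimmer Tsc1 probe set gave 0.05 ± 0.06 and did not pass. Ddit4, for an inhibitor that acts through the same complex, went the other way, from 8.66, 8.76 and 8.73 to 8.07, 8.05 and 8.30, again with no overlap (-0.58 ± 0.07; adjusted p = 0.00219). Pdpk1, for a kinase that activates Akt, rose by 0.22 ± 0.04 (adjusted p = 0.0132). Leaving out not-injected replicate 2, not-injected replicate 3 or TFEB-injected replicate 2 ended that call, with an adjusted p of at most 0.0540. A second Pdpk1 probe set gave 0.11 ± 0.05 and did not pass.

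Of 13 measured genes for mTORC1 outputs, 3 rose and 1 fell, with a median of 0.00. Pdcd4, for a translation inhibitor that is degraded when S6 kinase is active, went from 12.15, 12.21 and 12.20 to 12.75, 12.77 and 12.82, with both groups tight and far apart (0.59 ± 0.04; adjusted p = 2.56e-04). Eif4ebp1, for the repressor of eIF4E that mTORC1 inactivates, rose by 0.42 ± 0.05 (adjusted p = 0.00180). Its other probe sets gave 0.35 and 0.05, the latter not past the threshold. Lpin1, for a phosphatidate phosphatase, completes the rises at 0.28 ± 0.06 and was named after its value was seen. Leaving out any not-injected array, or TFEB-injected replicate 2, ended its call, with an adjusted p of at most 0.0714. A second Lpin1 probe set gave 0.16 and did not pass. Larp1, for a repressor of ribosomal protein messages, fell by 0.19 ± 0.05 (adjusted p = 0.0437), a call that held only when the array left out was TFEB-injected replicate 1 (highest adjusted p 0.123). With any not-injected array, or TFEB-injected replicate 2, left out, 2 genes of this list passed instead of 4.

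Of 13 measured genes that govern where MiT/TFE factors reside, 3 rose and 0 fell (median 0.07). Mcoln1, for the lysosomal calcium channel whose signal leads to TFEB dephosphorylation, went from 8.46, 8.33 and 8.25 to 8.82, 8.999 and 9.09, with no overlap (0.62 ± 0.08; adjusted p = 0.00276), and its second probe set gave 0.58. Ywhah, for a 14-3-3 protein of the family that retains TFEB in the cytoplasm, rose by 0.18 ± 0.04 (adjusted p = 0.0237). That call held only when the array left out was TFEB-injected replicate 3 (highest adjusted p 0.0937). Ywhaq, of the same family and named after its value was seen, rose by 0.18 ± 0.05 (adjusted p = 0.0449), lost with any 1 array left out (adjusted p up to 0.157) and with median centring (adjusted p = 0.0821). The other Ywhaq probe sets gave 0.08 to 0.24, and in the fit over all probe sets only that at 0.24 passed. With any not-injected array, or TFEB-injected replicate 2, left out, 1 gene of this list passed. The calcineurin genes Ppp3ca (-0.15 ± 0.05), Ppp3cb (0.08 ± 0.05), Ppp3cc (0.22 ± 0.08) and Ppp3r1 (0.03 ± 0.05), for the phosphatase that acts on TFEB, did not pass and were also named after their values were seen.

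Of 16 measured genes reported elsewhere as MiT/TFE targets, 10 rose and 0 fell (median 0.31), with changes of 0.25 to 2.25 among those that rose. By the naming rule these were Ctsa, for cathepsin A (1.38 ± 0.10), and Hexa, for a hexosaminidase subunit (1.29 ± 0.10; adjusted p = 2.02e-04 and 2.58e-04). Beside these, 10 of the 17 macrophage and Kupffer cell markers and 4 of the 7 markers linked to lipid-laden macrophages rose, and their part in these values was not tested.

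The profiles most like those of the genes that rose were sought by the mean absolute difference of centred log2 values over the 6 arrays. For Rragc these were Bbip1, for a subunit of the BBSome (difference 0.02), the tetraspanin gene Cd81 (0.03) and the sialyltransferase gene St3gal3 (0.03), which changed by 0.68, 0.69 and 0.67. For Gpnmb they were Slc25a4, for a mitochondrial ADP/ATP carrier (0.10), Ppargc1a, for a coactivator of mitochondrial biogenesis (0.14), and the annexin gene Anxa8 (0.15). Slc25a4 went from 7.03, 7.05 and 7.14 to 8.68, 9.23 and 9.76, and Ppargc1a from 7.43, 7.44 and 7.46 to 8.93, 9.73 and 10.42. In both, as in Gpnmb, the not-injected arrays lay close together, injected replicate 1 was the lowest of the injected arrays and replicate 3 the highest. Such likeness follows from the search, which used these same arrays. Another Slc25a4 probe set, the dimmest of 4, gave 0.17 and did not pass.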

How the data were processed

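Liver RNA of 6 mice was hybridised to Affymetrix arrays, 1 per mouse. The authors deposited log2 expression values made by RMA in the affy package, per the submitters' processing notes, which give no versions here. RMA equalises the distributions of the arrays, so overall shifts in RNA content are not seen. Of 22690 probe sets, 20380 that carried 1 gene symbol in the platform annotation and were no controls were used, and each of 12393 genes was read from the probe set with the highest mean. Groups were compared with limma 3.58.1 (lmFit, eBayes) in R 4.3.3, p-values being adjusted by Benjamini-Hochberg over the 12393 genes and called under 0.05; the fit was checked on simulated data. Alternatives covered probe set choice (averaging all sets of 1 gene among them), scaling (median centring, cyclic loess), a filter on low values, variance models (no moderation, weights per array, a robust prior with intensity trend), the replicate number as a block, thresholds and leaving out each array. The 10 genes, the pathway and cell type lists, the motifs and the naming rule were chosen with earlier results of these data known. The rule named the 10 genes, up to 2 called genes per direction and pathway list, or else the 1 of lowest p, the leading call per direction of 4 marker lists, and the 3 most similar profiles of each called gene. Promoter sequences are from RefSeq. Figures were drawn with matplotlib 3.10.9.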

Additional observations from a re-analysis of the deposited data

How the results depend on the processing

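Rragc kept its direction and its call in each of the 18 alternatives (0.67 to 0.77), and Gpnmb in 16 of 17, the exception being the unmoderated test, which left 1 of the 10 genes called. Among the 10 genes, 6 passed with array weights, whose estimation did not fully converge, 5 at a threshold of 0.10, and 2 to 4 with each array left out; those that joined Rragc and Gpnmb were Mitf, Tfec, Rragd or Flcn, each upward. Over all genes the count of 2219 became 5854 with array weights, 1053 at a threshold of 0.01, and 1229 to 2409 with each array left out, the lowest without TFEB-injected replicate 2. The 25 calls in the pathway lists became 38 and 16 with array weights and the 0.01 threshold. The changes of 3 genes near 0 turned sign without passing. Tfeb was -0.088 with array weights and ran from -0.011 to 0.10 with each array left out, Rraga was 0.0020 and ran from -0.064 to 0.054, and Rheb was 0.0021 and ran from -0.061 to 0.035; the cause was not tested. The deviations of same-numbered arrays correlated at 0.01, -0.13 and -0.11, and those of differently numbered arrays at -0.04 to 0.16. With so few arrays this cannot decide whether the numbers pair mice, and the labels do not say so. With the replicate block, 2 of the 10 genes, 20 pathway genes and 1533 genes in all passed. Single settings also brought calls of Mitf (mean of its probe sets; intensity trend), Rragd (cyclic loess) and Flcn (filter on low values). The deposited values carry no measure of signal over background.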

Other observations

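Other cell types were read from the same arrays. Of 10 sinusoidal endothelial markers 2 rose and 0 fell, with a median of 0.01. The rises were those of Stab2 (1.42 ± 0.05) and Lyve1 (0.89 ± 0.07), named after their values were seen, and 8 did not pass. Of 10 stellate cell and fibroblast markers 2 rose and 2 fell, with a median of -0.03. Of 5 cholangiocyte markers 1 fell (median -0.16), of 7 T and NK cell markers 1 rose (0.00), of 4 B cell markers 1 fell (0.02) and of 4 neutrophil markers 1 rose (0.06). The neutrophil call was lost with any 1 of the 6 arrays left out, the T and NK cell call without not-injected replicate 2, not-injected replicate 3 or TFEB-injected replicate 2, and the B cell call when replicate 2 of either group was left out. Among stellate cell and fibroblast markers, 0 fell when replicate 2 of either group or not-injected replicate 3 was dropped, 1 fell without not-injected replicate 1, and 1 rose with any array left out but not-injected replicate 2. Among cholangiocyte markers 2 fell without TFEB-injected replicate 1, and among B cell markers 1 then also rose. Against the not-injected mean, the endothelial list had median shifts of 0.18, 0.03 and -0.21 in TFEB-injected replicates 1, 2 and 3. The macrophage median, the lead Mitf probe set and Tfec were also lowest in replicate 3.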
